A study of Mus musculus with 12 samples.

Results

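The genes of the calcium/calmodulin-dependent kinases were examined for enrichment of 5-methylcytosine (m5C) in RNA of the mouse hippocampus. The set was given by name and held 9 protein-coding genes: Camk2a, Camk2b, Camk2d and Camk2g, Camkv, Camk1d and Camk4, and Camkk1 and Camkk2. A peak belonged to a gene when it overlapped the gene's annotated span in the mm10 build by at least 1 base on the gene's strand. The set drew 118 of the 72319 peaks in the 6 lists, which had peaks in 9388 protein-coding genes in all. The RNA came from hippocampi of wild-type female C57BL/6 mice that had aged naturally to 18 months (aged, 3 lists) or were 3 months old (young, 3 lists). A list holds the places where fragmented RNA captured with an m5C antibody was enriched over the RNA put in, and each list stems from 1 immunoprecipitated sample and its own input. The labels do not say whether samples of 1 age came from separate animals, so p-values measure the spread between samples, which may be technical. The aged lists held 14008 to 15189 peaks and the young lists 8549 to 10392.

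Calmodulin takes up calcium that enters an active neuron and then switches on these kinases. CaMKII is a large holoenzyme built from the products of Camk2a, Camk2b, Camk2d and Camk2g; it can keep itself active by autophosphorylation and is known for its part in long-term potentiation in the hippocampus. CaMKI and CaMKIV are instead activated by an upstream kinase, CaMKK, encoded by Camkk1 and Camkk2, and CaMKIV in the nucleus phosphorylates the transcription factor CREB.

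RefSeq gives a start sequence for 6 genes of the set, and peaks began at the first transcribed base in 2 of them, Camk2b and Camkv, and inside the first 50 bases in Camk1d. Each sequence below holds the last 50 bases before the transcript start and the first 50 bases after it (RefSeq, GRCm38.p6, which is mm10), 5′ to 3′, and is shown because its capitals mark the bases that lay under a peak in at least 1 list. Camk2b is on the minus strand at chr11:6065699-6065798, Camkv on the plus strand at chr9:107935870-107935969 and Camk1d on the minus strand at chr2:5714713-5714812.
Camk2b: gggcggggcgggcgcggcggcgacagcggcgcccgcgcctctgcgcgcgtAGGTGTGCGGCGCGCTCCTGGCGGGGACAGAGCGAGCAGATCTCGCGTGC
Camkv: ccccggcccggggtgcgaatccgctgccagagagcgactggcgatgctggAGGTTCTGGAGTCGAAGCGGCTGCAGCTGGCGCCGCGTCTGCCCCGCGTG
Camk1d: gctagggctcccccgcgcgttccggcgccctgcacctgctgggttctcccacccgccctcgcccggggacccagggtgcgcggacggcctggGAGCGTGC
The Camk2b peak began at base 1 of the transcript in 3 of 3 aged and 3 of 3 young lists. The Camkv peak also began at base 1, in 2 aged and 0 young lists. The Camk1d peak of aged list 3 began at base 43 and covered the last 8 bases of the window, and its peaks in aged list 2 and young list 2 began further inside the gene; a second annotated start of Camk1d had no peak in its window. Cytosines made up 14, 16 and 20 of the first 50 transcribed bases in Camk2b, Camkv and Camk1d. The genes without a peak in this window had 17 (Camk2d), 13 (Camkk1) and 21 (Camkk2), so the cytosine content of the windows with and without a peak overlapped. The median of 32841 windows was 26%, or as many as in Camkk1.

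Aged lists had more peaks in the kinase genes than young lists, as they did in other genes. The 9 genes together had 25, 22 and 26 peaks in the aged lists and 15, 13 and 17 in the young lists. Their means were 24.3 ± 2.08 in aged and 15.0 ± 2.0 in young lists (SD, n = 3 each), a ratio of 1.62; in all other protein-coding genes the ratio was 1.52. Genes of the set with a peak numbered 7, 8 and 7 in the aged and 5, 5 and 6 in the young lists, and the groups did not overlap. Neither did they over all genes, of which 6675, 6235 and 6344 had a peak in the aged and 5190, 4814 and 5352 in the young lists. Peaks in all 6 lists were found in Camk2a, Camk2b, Camk4 and Camkk2, or 4 of the 8 genes with a peak (50%), against 31.8% of all genes with a peak. Every aged list had more peaks than every young list in 2 genes, Camk2g and Camk1d, a pattern that 11.9% of the 9388 genes showed. No gene of the set had more peaks in every young list, which 0.959% of genes did. Leaving out a list changed this in 2 genes: without aged replicate 1, Camk4 had 1 and 1 peaks in the aged and 2 in each young list, and without aged replicate 2, Camkk2 had 2 and 2 in the aged and 3 in each young list. With 3 lists against 3 a two-sided exact permutation test cannot go below p = 0.1, so none of these comparisons could pass 0.05, and the lowest p after Benjamini-Hochberg adjustment over the 9388 genes was 0.779 in the exact permutation test. In such bulk tissue, fewer cells of a type and less RNA per cell cannot be told apart, and the number of reads behind a list is unknown.

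**Figure D1:**
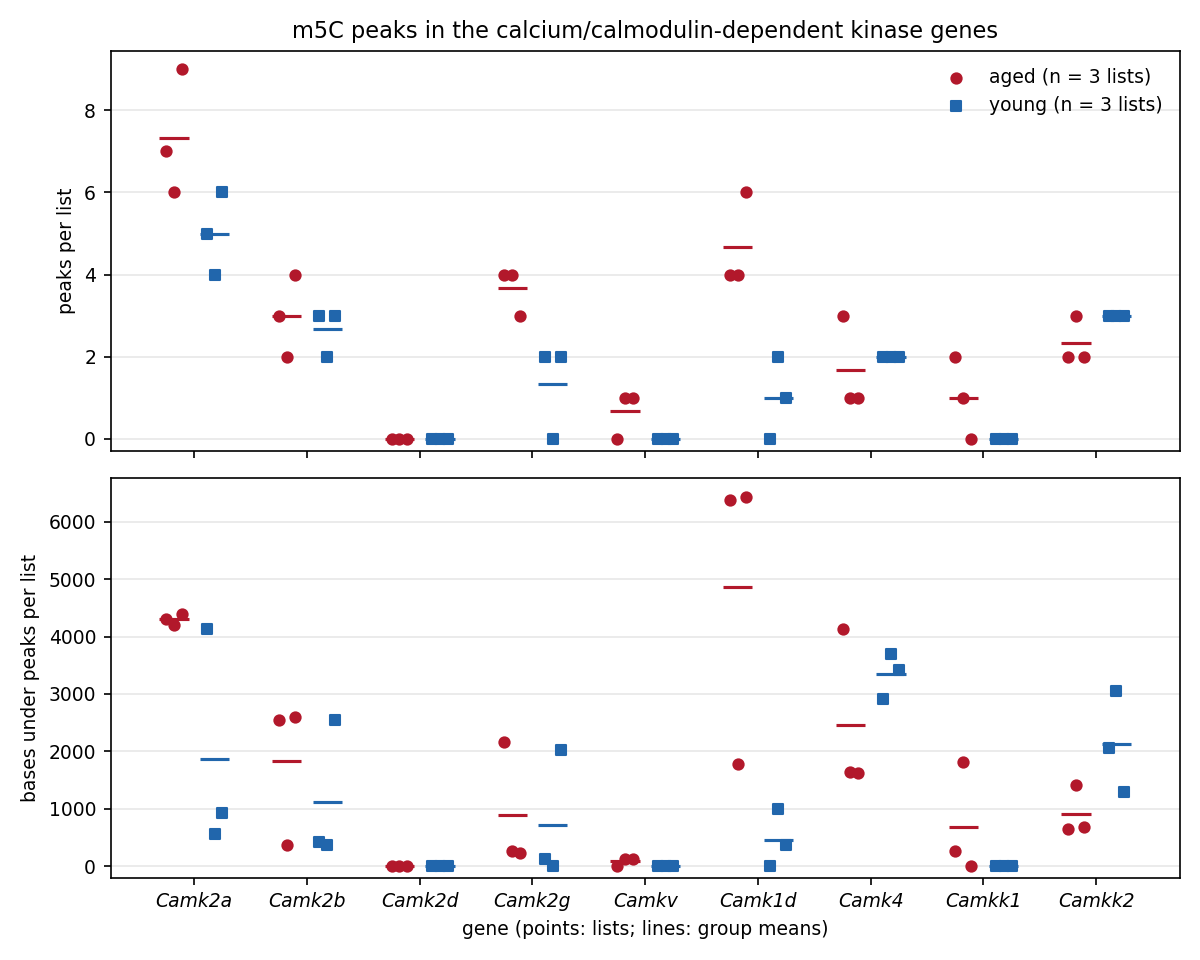
Number of m5C peaks (top) and bases under peaks (bottom) in each of the 9 kinase genes; points are the 3 aged (circles) and 3 young (squares) lists and lines are their means. Aged and young points do not overlap in peak number for Camk2g and Camk1d, nor in covered bases for Camk2a and Camk1d, and Camk2d is at 0 in every list.

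Camk2a encodes the alpha subunit of CaMKII, an abundant protein of excitatory forebrain neurons whose mRNA is carried into dendrites. It had the most peaks of the set, 7, 6 and 9 in the aged lists and 5, 4 and 6 in the young lists. The groups touched at 6 peaks (aged 7.33 ± 1.53, young 5.0 ± 1.0, SD, n = 3 each; exact permutation p = 0.2, two-sided). Without young replicate 3, or without aged replicate 2, every aged list exceeded every young one. Over the 6 lists Camk2a had 37 peaks, and 98.0% of genes with a peak had as many or fewer; the median gene had 4. These peaks fell into 10 regions of chromosome 18 between 60925618 and 60988152. Regions at 60963554 to 60963963 and at 60969994 to 60970042 had a peak in all 6 lists, always with the same ends.

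The widest Camk2a region lay at the end of the gene. It ran from 60984777 to 60988152, the last annotated base of the gene, and had a peak in 3 aged and 1 young list. The peak measured 3326, 3324 and 3364 bases in the aged lists and 3376 bases in young list 1. The authors' score of this peak was at or above that of 100%, 94.2% and 99.8% of the peaks in aged lists 1, 2 and 3 and of 38.5% of the peaks in young list 1. Because lists differ in length, such ranks describe a peak within its list only. Bases under Camk2a peaks numbered 4310, 4205 and 4399 in the aged lists and 4134, 568 and 926 in the young lists. Young list 1, which had the end region, lay close below the aged lists, and the other 2 young lists far below (exact permutation p = 0.1, two-sided). Covered bases were higher in every aged list in 14.2% of all genes with a peak. At the other end of the gene, a region from 60925618 to 60925840 had a peak in 3 aged and 2 young lists, with identical ends in each.

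Camk2b encodes the beta subunit, which binds actin filaments. Its peaks numbered 3, 2 and 4 in the aged lists and 3, 2 and 3 in the young lists, so the ages overlapped almost completely (exact permutation p = 1, two-sided). The region at the gene start, chromosome 11 from 6065474 to 6065748, had a peak of 275 bases in every list, the one whose first 50 bases are printed above. A region of 95 bases from 6028867 to 6028961 was likewise found in all 6 lists. The end region, from 5969644 to 5971826, measured 2183 bases in each of the lists that held it, aged 1, aged 3 and young 3. Covered bases therefore fell into a high and a low class at both ages, with 2553, 370 and 2598 in the aged and 419, 370 and 2553 in the young lists.

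Camk2g encodes the gamma subunit, found in many tissues. Aged lists had 4, 4 and 3 peaks in it and young lists 2, 0 and 2, so the groups did not overlap (aged 3.67 ± 0.577, young 1.33 ± 1.15, SD, n = 3 each; exact permutation p = 0.1, two-sided). The 7 regions of Camk2g were mostly seen once: 4 had a peak in a single aged list and none in a young one. The region on chromosome 14 from 20742705 to 20742753 had a peak in 3 aged and 2 young lists, and the one from 20760397 to 20760480 in 3 aged and 1 young list. A peak of 1980 bases that ends on the last annotated base of the gene, from 20734873 to 20736852, was present in aged list 1 and young list 3. With each list limited to its 8549 highest-scoring peaks, Camk2g had 2, 1 and 1 peaks in the aged and 1, 0 and 1 in the young lists, and the groups touched.

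Camk2d encodes the delta subunit, best known from the heart. It spans 251 kb of chromosome 3, from 126595487 to 126846326, and no list had a peak in it on either strand. The absence of a peak is no measure of the gene's expression.

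Narrow regions of the CaMKII subunit genes shared widths. Of the 22 regions in Camk2a, Camk2b and Camk2g, 16 were at most 150 bases wide, against 6 of the 18 regions in the other genes of the set; among all regions in protein-coding genes the share was 31.3%. A width of 49 bases occurred in all 3 genes, 33 and 103 bases in Camk2a and Camk2g, and 95 bases in Camk2b and Camk2g. Each of these widths accounted for 0.0543% to 0.305% of the 23958 regions in protein-coding genes. Only regions of at most 150 bases, 31.3% of those regions, were searched, so the widths are less rare among regions of that size. The shared widths were picked from these same regions, and no test was made of them. A peak in 1 list only lay behind the 103 bases in Camk2a, the 49 in Camk2b, and the 103, 33 and 95 in Camk2g. The 3 widths that Camk2a and Camk2g share lay in the same order in both, with 103, 33 and 49 bases at 48.2%, 69.6% and 71.1% of the Camk2a span and at 47.6%, 78.1% and 86.7% of the Camk2g span. Widths of 43 bases in Camk2a, 44 in Camk2g and 45 in Camk2b also lay before the region of 49 bases in each gene. Those of 44 and 45 bases had a peak in 1 list only. The width of 95 bases did not keep its place: it lay before the region of 49 bases in Camk2b, at 38.7% and 89.6% of the span, and after it in Camk2g, at 93.2% and 86.7%. Exons were not used here, so whether these regions are matching exons was not examined.

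**Figure D2:**
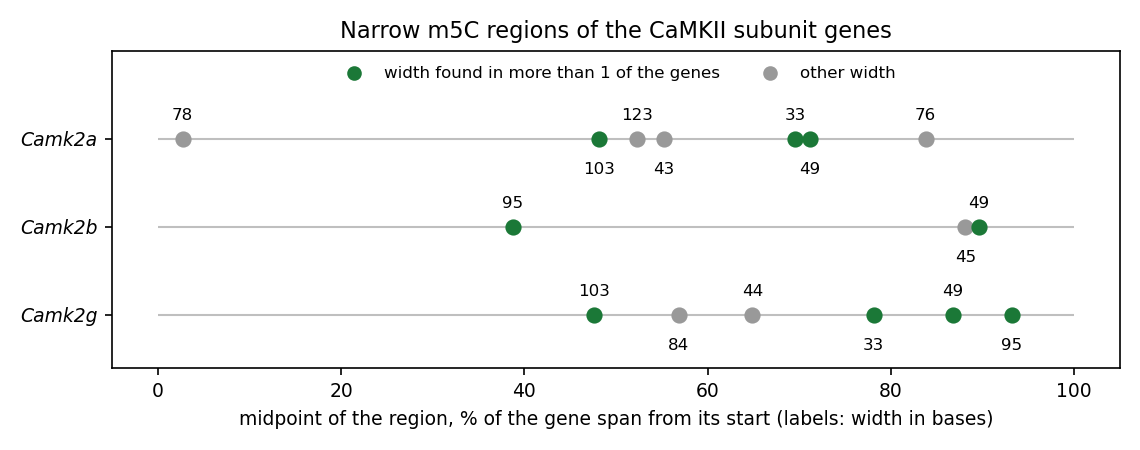
Regions of at most 150 bases in Camk2a, Camk2b and Camk2g, placed by their midpoint as a percentage of the gene span from its start and labelled with their width in bases. Green points mark the widths of 33, 49, 95 and 103 bases that occur in more than 1 of the genes.

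Camkv encodes a kinase-like protein of synaptic vesicles and dendritic spines that lacks kinase activity. Its single region, chromosome 9 from 107935920 to 107936051, had a peak of 132 bases in aged lists 2 and 3 and none in the other lists (exact permutation p = 0.4, two-sided). This is the region whose first 50 bases are printed above.

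Camk1d encodes CaMKI delta, a kinase activated by CaMKK, and showed the largest difference in peak number of the set. There were 4, 4 and 6 peaks in the aged lists and 0, 2 and 1 in the young lists. The groups were apart (aged 4.67 ± 1.15, young 1.0 ± 1.0, SD, n = 3 each; exact permutation p = 0.1, two-sided), and stayed apart with lists of equal length, at 3, 3 and 4 against 0, 2 and 1 peaks. In lists of that length, 3.35% of 7190 genes had more peaks in every aged list, and Camk2a was then another, with 6, 6 and 8 peaks in the aged and 5, 4 and 5 in the young lists. Bases under Camk1d peaks were 6387, 1787 and 6440 in the aged and 0, 996 and 362 in the young lists (exact permutation p = 0.1, two-sided).

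The regions of Camk1d, on chromosome 2, included the 2 of the set that had a peak in every aged and no young list. One, from 5565227 to 5565780, measured 454, 499 and 554 bases in aged lists 1 to 3. The other, from 5339182 to 5339257, measured 76 bases in each, and its scores of 56.3, 64.7 and 65.2 were close to the lowest score of 50 that the lists hold. Of the 40 regions of the set these 2 make 5.0%, and 5.17% of all regions in protein-coding genes were aged-only in this sense. No region of the set was young-only, which 0.622% of all regions were. Close to the first of them, a region from 5562868 to 5563549 was found at both ages, in 3 aged and 2 young lists. The widest region of the set, 5479 bases from 5293623 to 5299101, lay at the end of Camk1d and had a peak in aged lists 1 and 3. Near the gene start, the region from 5714146 to 5714720 had a peak in aged lists 2 and 3 and young list 2.

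Camk4 encodes CaMKIV, the nuclear kinase that acts on CREB. It had 3, 1 and 1 peaks in the aged and 2 in each of the young lists (exact permutation p = 1, two-sided). A region on chromosome 18 from 33184761 to 33187323 had a peak in all 6 lists, and its peak was wider in every aged list, with 2563, 1634 and 1615 bases against 864, 1542 and 1375 in the young lists (exact permutation p = 0.1, two-sided). Of the 6 regions of the set that were found in every list, the 4 in Camk2a and Camk2b did not vary in width, and only in this one were the ages apart. Among the 4220 regions of protein-coding genes found in every list, 2.37% were wider in every aged list and 2.46% in every young list. The region near the end of Camk4, from 33193181 to 33195375, was one of the few with the opposite balance: it had a peak in 1 aged and 3 young lists. Together, covered bases were 4124, 1634 and 1615 in the aged and 2911, 3691 and 3421 in the young lists, and the groups overlapped; aged list 1 held both regions.

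Camkk1 and Camkk2 encode the upstream kinases, and their patterns differed from each other. Camkk1 had 2, 1 and 0 peaks in aged lists and 0 in every young list (exact permutation p = 0.4, two-sided). The 3 Camkk1 peaks lay in different regions, 2 of them with scores of 51.3 and 52.2 near the lowest listed score. The third ran over 1812 bases of chromosome 11 from 73040221 to 73042032, close to the end of the gene. Camkk2 had 2, 3 and 2 peaks in the aged and 3 in each of the young lists (exact permutation p = 0.4, two-sided). One Camkk2 region, chromosome 5 from 122740619 to 122741601, had a peak in all 6 lists, with widths of 446, 420 and 491 bases in the aged and 598, 491 and 983 bases in the young lists, which touched at 491. Bases under Camkk2 peaks were 646, 1414 and 691 in the aged and 2059, 3048 and 1284 in the young lists, so that a single aged value lay above the lowest young one (exact permutation p = 0.2, two-sided). Among all genes with a peak, 2.24% had more covered bases in every young list, and with the lists as deposited no gene of the set was among them. With lists of equal length, mean covered bases in Camkk2 were 519 in the aged and 2064 in the young lists. The exact permutation p was then 0.1 (two-sided), the lowest possible, so every young list lay above every aged one. The share of all genes apart in that setting was not computed. The direction in Camkk2 turned with the score: with scores of at least 100, it had 1, 2 and 2 peaks in the aged and 1, 0 and 1 in the young lists.

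Along the genes of the set, most regions lay in the later part of the span. The 40 regions were spread as 5, 3, 7, 11 and 14 over the 5 equal parts of the span, from start to end. Spans include introns. The same spread over the regions of all genes was not computed, so whether it is particular to the set is not known. A region ending less than 1000 bases before the gene end was present in 6 of the 8 genes with a peak (75.0%), all but Camkv and Camkk2, and each of the 6 was over 1000 bases wide. Among all genes with a peak and a span of at least 2000 bases, 36.9% had a region there and 20% one over 1000 bases wide. At the gene start, 4 of the 8 genes (Camk2a, Camk2b, Camkv and Camk1d, or 50%) had a region beginning within 1000 bases, against 24.7% of all such genes. Camkk2 had neither, as did 47.3% of all genes. This measure was chosen after the peaks had been seen, and no test was made of these shares. Genes were not matched for peak number, over the 6 lists 4 in the median gene, 37 in Camk2a and 2 in Camkv. Counted by peak midpoint, the last 1000 bases held 4%, 4.55% and 0% of the set's peaks in the aged lists. In the young lists they held 0%, 0% and 5.88%, against 8.3% to 9.36% over all genes at both ages. The first 1000 bases held 8% to 18.2% of the set's peaks, against 8.47% to 10.5%. Wide end regions can have their midpoint further in, as in Camk2a.

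**Figure D3:**
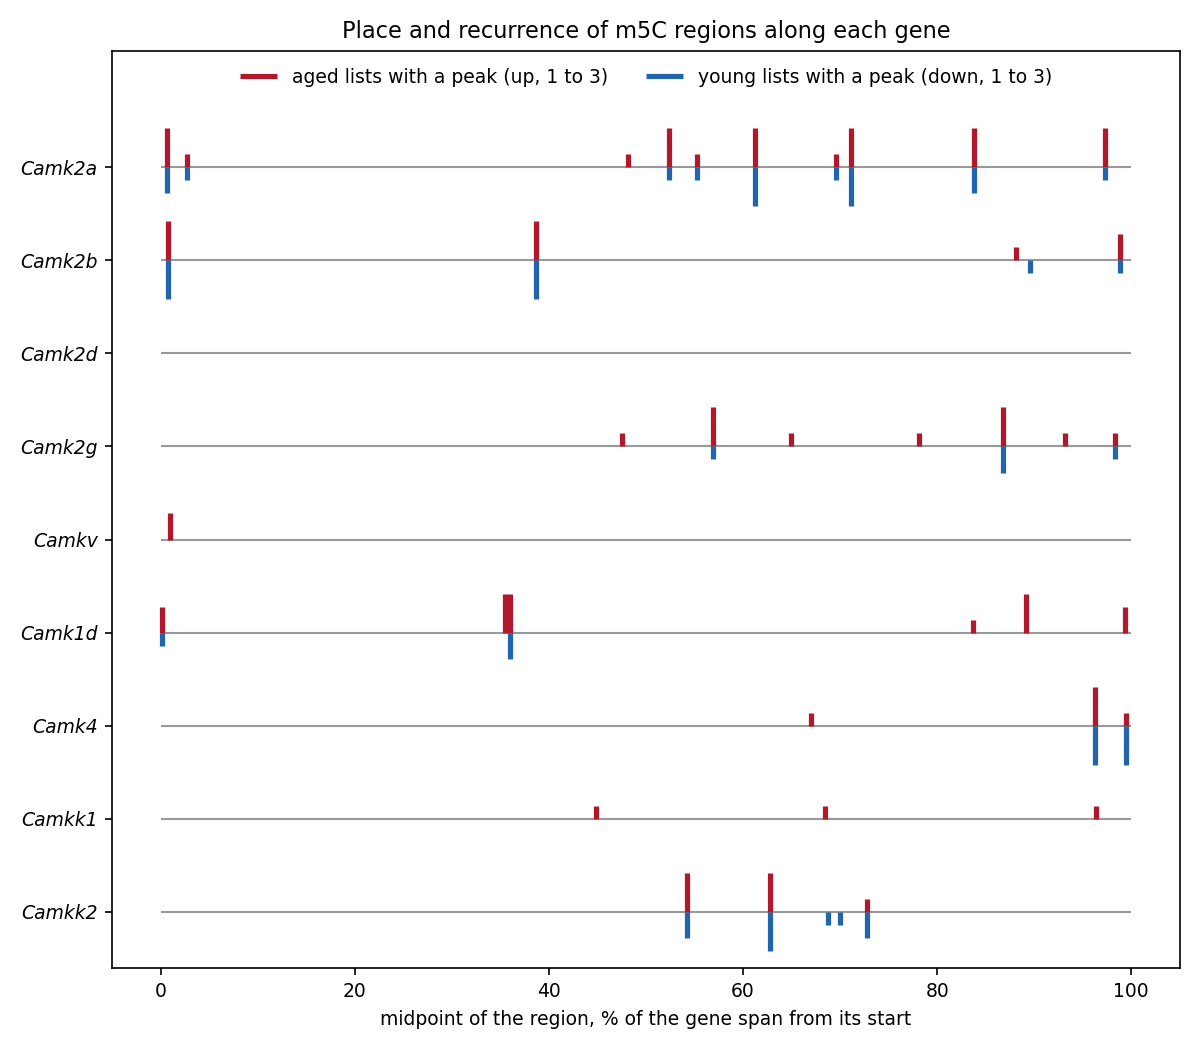
Each vertical bar is an m5C region at its midpoint, as a percentage of the gene span from its start; height above the line counts the aged lists (0 to 3) and depth below it the young lists (0 to 3) with a peak. Camk2a, Camk2b and Camk1d carry regions at both ends, Camkk2 only in between, and Camk2d none.

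Recurrence in the set was close to that of all regions. Of the 40 regions, 6 had a peak in all 6 lists (15.0%, against 17.6% of all regions in protein-coding genes) and 14 in a single list (35.0%, against 34.8%). More aged than young lists held a peak in 25 regions (62.5%, against 56.4%), more young than aged lists in 5 (12.5%, against 17.7%). The 5 were the end region of Camk4, 3 regions of Camkk2 and 1 of Camk2b. Of 26 regions seen in 2 or more lists, 17 had the same ends in every list (65.4%, against 66.7%).

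**Figure D4:**
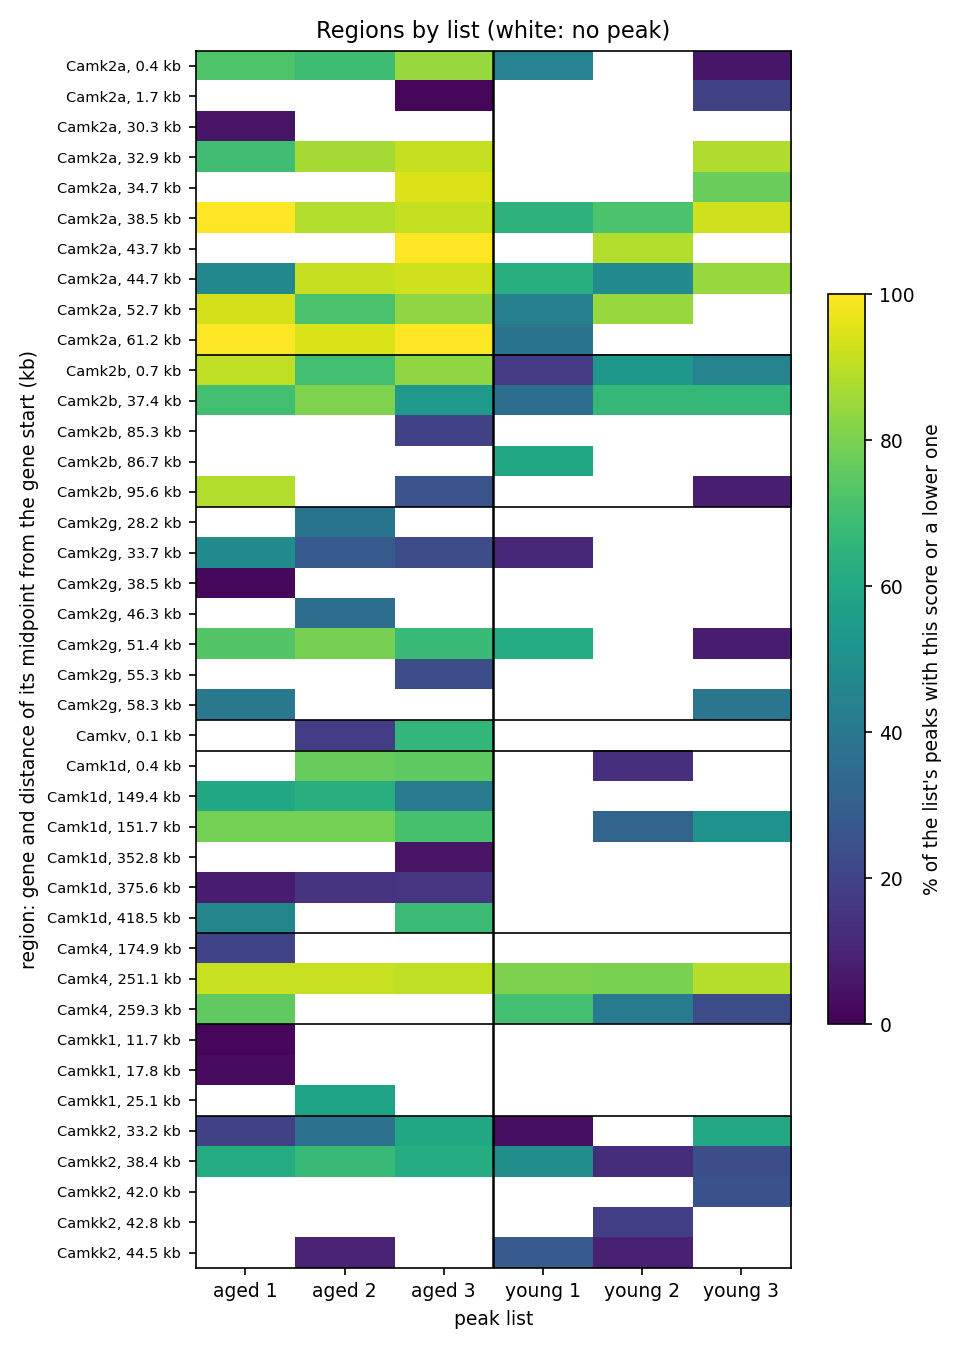
The 40 regions of the kinase genes in the 6 peak lists; rows are regions, named by gene and by the distance of the midpoint from the gene start in kb, columns are the 3 aged and 3 young lists, and colour gives the percentage of the list's peaks with the same or a lower score (white, no peak). The regions of Camk1d at 149.4 and 375.6 kb are filled in the aged columns only.

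The excess of the set's peaks in aged lists was smaller when all lists had the same length. With each list limited to its 8549 highest-scoring peaks, the 9 genes had 17 ± 2.0 peaks in aged and 13.3 ± 0.577 in young lists (SD, n = 3 each), a ratio of 1.28, and the ratio in all other genes was 1.01. With scores of at least 100, the ratios were 2.16 in the set and 1.64 in other genes, and among peaks at or above their own list's median score 2.35 and 1.52. Lists of equal length bring the ratio of other genes close to 1 by construction. A cut at each list's median keeps that ratio close to its value in the lists as deposited, also by construction. These ratios are descriptions, since the genes were chosen with results known.

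**Figure D5:**
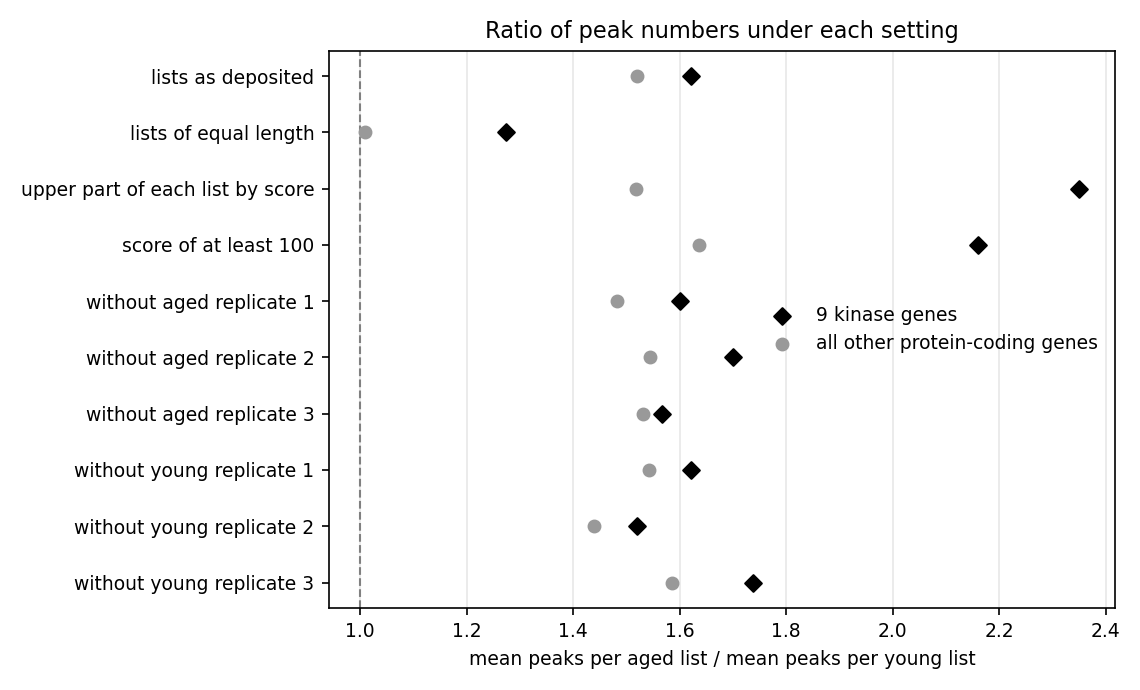
Mean number of peaks per aged list divided by the mean per young list, for the 9 kinase genes (diamonds) and all other protein-coding genes (circles), under each setting named on the left (the upper part of a list holds the peaks at or above its median score); the dashed line marks equal means. The ratio is 1.62 for the kinase genes and 1.52 for other genes with the lists as deposited, and 1.28 and 1.01 with lists of equal length. For other genes, equal length brings the ratio close to 1 by construction, and the cut at the median keeps it close to the deposited value.

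Around the kinases, 36 of 41 other genes of the pathway had a peak, beside 9388 of 21900 protein-coding spans. For 15 of the 36, aged lists with a peak outnumbered young ones, while for 3 young lists did. With lists of equal length these were 10 and 7. With the lists as deposited, the 15 and 3 genes make 41.7% and 8.33% of the 36, against 42.9% and 17.1% of all genes with a peak. In the kinase set it was 4 and 0 of 8. Calm2 and Calm3, which both encode calmodulin, had a peak in every list, with 2 in each list for Calm2. Camk1, a further CaMKI gene, had 1 peak in each aged list and none in a young list, while Camk1g, the gamma form, had a peak in young list 2 only and Pnck had none. Of the inhibitor proteins of CaMKII, Camk2n1 had 2, 2 and 2 peaks in the aged and 1, 0 and 2 in the young lists, and Camk2n2 had 0, 1 and 0 in the aged and 1, 0 and 0 in the young lists.

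Of 7 partners and targets of CaMKII at the synapse, 6 had a peak, beside 9388 of 21900 protein-coding spans. Gria1, an AMPA receptor subunit that CaMKII phosphorylates, had 11, 8 and 13 peaks in the aged and 7, 3 and 6 in the young lists. Grin2b, the NMDA receptor subunit that binds CaMKII, had 7, 5 and 5 against 4, 2 and 3. Ppp3ca, a catalytic subunit of the phosphatase calcineurin, had 2, 2 and 3 against 1, 1 and 1. Every aged list exceeded every young one in 5 of the 36 pathway genes with a peak (13.9%), Gria1, Grin2b, Camk1 and Ppp3ca among them, beside 11.9% of all genes with a peak. Lrrc7, the scaffold densin, had 5, 4 and 6 against 6, 5 and 4, and the calmodulin-binding Pcp4 had 3 in every list. Among the related kinases Dclk1 had the most, with 7, 4 and 8 against 4, 1 and 3. Creb1, which encodes CREB, had 4, 3 and 2 against 3, 2 and 3. No list had a peak in Dapk2, Dapk3, Eef2k or Actn2.

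The tissue label was checked by presence of a peak only, since a peak is not a level of expression. The neuronal genes Rbfox3, Snap25 and Syt1 and the excitatory genes Slc17a7 and Neurod6 had peaks in all 6 lists. Of 18 marker genes, 15 had a peak in at least 1 list, beside 9388 of 21900 protein-coding spans. C1qa, Csf1r and Cldn5 had none. The inhibitory neuron gene Gad1 had 1, 1 and 2 peaks and the endothelial gene Pecam1 1, 1 and 1 in the aged lists, and neither had one in a young list. Of all 9388 genes with a peak, 393 had one in every aged and no young list. Every aged list exceeded every young one in 5 of the 15 markers with a peak (33.3%, against 11.9% of all genes). These were Gad1, Pecam1, Rbfox3, Syt1 and Slc17a7. Of the 15 markers with a peak, 4 had one in more aged than young lists (26.7%, against 42.9% of all genes with a peak). More young lists held one in 2 (13.3%, against 17.1%). The 2 were the astrocyte gene Aqp4 (2 aged and 3 young lists) and the oligodendrocyte gene Mog (0 aged and 1 young list). The part of cell composition and of depth in the differences between ages was not tested.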

How the data were processed

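Per the submitters' processing notes, reads were handled with cutadapt 1.9.3 and HISAT2 2.0.4 on mm10. The authors deposited 1 peak list per immunoprecipitated sample and its input, with a score per peak; the peak names carry the word MACS, and its version, its settings and the score's formula were not given in the sources used here. Depth is unknown, and a deposited spreadsheet of methylated sites was not analysed here. Gene spans and transcript starts came from RefSeq (GRCm38.p6). Strand came from its promoter table for 6 of the 9 genes and from the majority of their peaks for Camk2a, Camk2g and Camk4. Over all genes, 99.7% of peaks inside 1 span alone lay on the strand so assigned. That share includes 1831 genes whose strand came from the majority of the same peaks. It is therefore no check of the strand of Camk2a, Camk2g and Camk4. Peaks of all 6 lists that touched or overlapped on 1 strand were merged into regions. Coordinates count from 1. Values per list were compared by two-sided exact permutation tests in Python 3.11.15 with numpy 2.4.6; code was tested on simulated lists. The genes and pathway lists, and the rule for naming genes (all 9; pathway genes found at 1 age only, in no list or with the most peaks of their role), were chosen with earlier results of these data known. Camk1g, Camk2n1, Camk2n2, Grin2b, Ppp3ca, Lrrc7, Ppm1e and Ppm1f were named after their values were seen, and some pathway genes are not reported here. Scores were ranked within a list only, but 1 alternative applied the same limit of 100 to all 6 lists. Whether a score of 100 means the same in each list is not known. Alternatives were list length, score limits, overlap, strand, merging, end windows, left-out lists and pairing.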

Additional observations from a re-analysis of the deposited data

How the results depend on the processing

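With lists of equal length the mean excess of aged over young lists was 3.67 peaks instead of 9.33 in the 9 genes and 1.33 instead of 2 genes with a peak, 1 region was aged-only instead of 2 (that of Camk1d at 5565227), 7 instead of 3 pathway genes had a peak in more young than aged lists (10 instead of 15 in more aged lists), and covered bases in Camk2g differed by -599 (aged minus young) instead of 164. With peaks at or above their own list's median score the excess in genes with a peak was 2.67, no pathway gene (0) leaned to young lists, covered bases turned to 487 more in aged lists in Camk4 and 452 in Camkk2, and Camkk2 had 1 more peak in aged lists; the 3 regions then aged-only were others, 2 in Camk2a and 1 in Camkk2. With scores of at least 100 the values were 0 pathway genes, 487 and 320 bases and 1 peak; of the 2 regions then aged-only, Camk1d at 5565227 was as before and Camk2a at 60984777 took the place of Camk1d at 5339182.

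Leaving out 1 list gave 2 to 4 aged-only regions, the 4 without young replicate 1. It gave 0 to 1 young-only regions, the 1 in Camk4 without aged replicate 1. The rule was then a peak in every remaining list of 1 age and in none of the other. This is looser than the rule for all lists, so counts that did not fall are no check of these regions. Pathway genes leaning to young lists numbered 3 to 5. The difference in Camk2b peaks ranged from -0.167 (without aged replicate 3) to 0.833, and in covered bases of Camk2g from -472 (without aged replicate 1; it was also below 0 without young replicate 1 or 2) to 818. The cause of these changes was not tested. Camk2g and Camk1d had more peaks in every aged list whichever list was left out. Their groups were already apart with no list left out, so this had to hold and is no check of them. With lists of equal length, the groups touched in Camk2g and stayed apart in Camk1d. The same held with peaks at or above their own list's median score, and with scores of at least 100.

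Replicate numbers pair no animals in the labels. Deviations of lists with the same number had correlations of 0.0187, 0.0799 and 0.0261. Those of lists with different numbers ran from -0.05 to 0.0241, so 0.0799 and 0.0261 lay above that range, though all were small. A paired sign-flip test cannot go below p = 0.25 here; with this replicate block the difference in Camk1d was the same 3.67 peaks (exact p = 0.25).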

Other observations

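Camk2a had the most peaks of the kinase genes, and the genes whose 6 peak numbers lay closest to its own were sought, by Euclidean distance over the 6 lists and without predicted genes. The 5 closest were Jakmip2, Tlk1, Tnrc6b and Zfp638, each at a distance of 1.73, and Canx at 2.0, a value that Eea1 shared. Tnrc6b, which encodes a partner of Argonaute in silencing by microRNAs, had 8, 6 and 8 peaks in the aged lists and 5, 4 and 5 in the young lists. Canx, which encodes the chaperone calnexin, had 6, 6 and 8 against 4, 5 and 6.

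The phosphatases that reverse the action of these kinases each had a peak in at least 1 list, beside 9388 of 21900 protein-coding spans. Ppm1e and Ppm1f, which remove the activating phosphate from CaM kinases, were among these phosphatases. Ppm1e had 2, 1 and 4 peaks in the aged and 2, 0 and 1 in the young lists. Ppm1f had 1 in each aged list and 1, 0 and 1 in the young lists. Ppp3r1, the regulatory subunit of calcineurin, had 3, 3 and 4 peaks in the aged and 3, 1 and 2 in the young lists.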
